A study of Mus musculus with 8 samples.

Results

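The constitutive proteasome subunits were taken as every gene with a single symbol on the array that belongs to the Psma (1 to 7), Psmb (1 to 7), Psmc (1 to 6) or Psmd families. Of 18193 named genes, 34 met this rule. They comprised 14 genes of the core particle (7 alpha-ring, 4 non-catalytic beta and 3 catalytic beta subunits) and 20 of the regulatory particle (6 base ATPases, 3 other base subunits, 8 lid subunits and 3 assembly chaperones that carry Psmd names). Each gene was represented by its probe set with the highest mean log2 intensity over the arrays.

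RNA was from mouse CD4+ T cells sorted by fluorescence from animals in which the Foxp3 allele carries enhanced green fluorescent protein (EGFP). Foxp3, encoded on the X chromosome, specifies regulatory T cells. The design text gives hemizygous males for the EGFP-positive cells, and neither their age nor the exact change in the mutant allele, named delta, is given in the sources used here. Affymetrix arrays were labelled WT EGFP-positive (n = 3), delta EGFP-positive (n = 3), delta EGFP-negative (n = 1) and WT EGFP-negative (n = 1). EGFP-positive cells express the tagged allele, and EGFP-negative cells are CD4+ cells of the tagged mice without the reporter signal. No source used here says that replicate arrays came from separate animals, so p-values measure the spread between these arrays, which may be technical.

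Before the members, the labels and libraries were checked. On the log2 scale the Foxp3 probe set read 4.75, 4.86 and 4.64 where the label is WT EGFP-positive, 4.52 in the WT EGFP-negative array, 6.14 in the delta EGFP-negative array and 11.1, 11.51 and 11.21 where the label is delta EGFP-positive. Low Foxp3 in the libraries labelled WT EGFP-positive goes against that label, the position of the probes relative to the tag and the mutation is not known here, and every direction below rests on the labels. Array medians lay between 53.3 and 54.7 on the linear intensity scale, and Pearson correlations of log2 values were 0.98 to 0.992 among the WT EGFP-positive arrays, 0.988 to 0.991 among the delta EGFP-positive arrays and 0.96 to 0.969 between both trios. Mean log2 intensity of the 5 measured T cell identity genes was 12.01 to 12.17 in every array, while the means of the 4 B cell and the 5 myeloid markers were 5.45 to 6.26 and 5.34 to 6.75. The brightest myeloid marker, Csf1r, read 8.36, 6.81 and 9.85 in WT EGFP-positive and 7.13, 6.57 and 5.88 in delta EGFP-positive arrays. It read 6.16 in the WT and 5.74 in the delta EGFP-negative array.

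The proteasome is the large protease that degrades proteins tagged with ubiquitin in the cytosol and nucleus. Its core particle is a barrel of outer alpha rings, which gate the entrance, and inner beta rings, which hold the proteolytic sites facing an enclosed chamber. The regulatory particle caps the barrel: its lid removes ubiquitin from substrates and its ATPase base unfolds them and feeds them into the core. Cells adjust the many subunit genes together, in mammals through the factor Nfe2l1 acting at antioxidant response elements, and T cells also make an immunoproteasome in which alternative catalytic subunits replace the constitutive ones and yield peptides for antigen presentation.

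Promoters of 4 members are printed here so that the catalytic subunit Psmb5, the member with the largest difference (Psmc1) and a lid member with a call under every alternative (Psmd14) can be set beside a member with no called difference (Psmd4). They are the 250 bases before the annotated start from RefSeq, build GRCm38.p6, read 5′ to 3′ on the gene's strand. Capitals mark matches to the motifs searched on both strands: the antioxidant response element core (TGACNNNGC and TGAGNNNGC), the CCAAT box (CCAAT), an ETS-type site (CCGGAAG), the GC box (GGGCGG), the E box (CACGTG) and the TATA box (TATAAA). Motifs were searched independently of each other, so matches could overlap.
Psmb5 (chr14:54617996-54618245, minus strand): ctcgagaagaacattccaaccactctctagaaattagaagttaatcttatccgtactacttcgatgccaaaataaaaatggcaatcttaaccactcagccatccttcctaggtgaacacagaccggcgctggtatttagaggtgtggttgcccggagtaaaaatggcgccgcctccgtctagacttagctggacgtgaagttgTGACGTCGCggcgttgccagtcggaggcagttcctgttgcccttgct
Psmc1 (chr12:100109952-100110201, plus strand): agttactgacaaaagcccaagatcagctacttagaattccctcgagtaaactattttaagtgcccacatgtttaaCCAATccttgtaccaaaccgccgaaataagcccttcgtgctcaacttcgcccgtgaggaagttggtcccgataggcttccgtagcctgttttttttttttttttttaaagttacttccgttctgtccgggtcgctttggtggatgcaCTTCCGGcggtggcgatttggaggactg
Psmd14 (chr2:61711444-61711693, plus strand): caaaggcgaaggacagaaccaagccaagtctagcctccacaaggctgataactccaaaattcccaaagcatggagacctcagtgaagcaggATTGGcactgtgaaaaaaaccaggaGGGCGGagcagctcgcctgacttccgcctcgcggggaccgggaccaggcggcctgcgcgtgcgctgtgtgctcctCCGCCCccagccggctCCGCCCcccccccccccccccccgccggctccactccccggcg
Psmd4 (chr3:95042615-95042864, minus strand): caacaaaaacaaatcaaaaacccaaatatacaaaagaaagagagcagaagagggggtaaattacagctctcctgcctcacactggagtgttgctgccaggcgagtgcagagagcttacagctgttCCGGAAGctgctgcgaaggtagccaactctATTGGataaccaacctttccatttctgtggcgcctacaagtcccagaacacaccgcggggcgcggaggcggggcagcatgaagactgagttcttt
Psmb5 held TGACGTCGC, a match to the antioxidant response element core, 47 to 39 bases before the start. Psmc1 and Psmd4 both held a CCAAT box and an ETS-type site, and their differences between alleles were the largest and among the smallest of the set.

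Promoter records were matched for 28 of the 34 members, 2 of them with several promoters. The C form of the antioxidant response element core was present in 5 members (17.9%), against 11.5% of all 27025 genes with a promoter and 14.2% of the 4544 at least as bright as the dimmest member. The G form was present in 8 members (28.6%), against 16.3% and 19.2%. The ETS-type site was present in 9 members (32.1%), against 7.83% and 20.2%. A CCAAT box was present in 39.3% of members against 37.5% and 40.3%, and a GC box in 60.7% against 35.4% and 67.5%. The E box (7.14% of members, 6.86% of all genes, 11.1% of bright genes) and the TATA box (10.7%, 14.3% and 7.11%) were less frequent. Median log2 differences between delta and WT EGFP-positive arrays, described in the next paragraphs, were 0.48 for the 9 members with an ETS-type site and 0.54 for the 19 without, and 0.54 for the 5 with the C-form element and 0.48 for the 23 without. The G form gave 0.54 (8 with) and 0.47 (20 without), the CCAAT box 0.49 (11) and 0.48 (17), and the GC box 0.47 (17) and 0.61 (11). The E box, with 2 members, gave 0.58 and 0.47, and the TATA box, with 3 members, 0.58 and 0.48. These medians are descriptions and were not tested. A match describes letters in this window and not bound protein.

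All 34 subunit genes were bright. Their means over the arrays ran from 8.3 to 12.3 on the log2 scale, the lowest at the 79.5th percentile of all probe sets, and all entered the tests, since no filter on low values was used. The median standard deviation (SD) of a member within a group was 0.09.

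Constitutive proteasome subunits were higher in the delta than in the WT EGFP-positive arrays. In limma's moderated test with Benjamini-Hochberg adjustment over 45037 probe sets, 25 of 34 members were called higher at an adjusted p under 0.05 and 0 were called lower, against 7.35% of all probe sets called higher and 5.39% called lower. Bright genes were called more often in general: 17.8% of the 5493 genes at least as bright as the dimmest member were called higher. At an unadjusted p under 0.05, 29 members were higher. The share of all probe sets at that unadjusted threshold is not given here or in the later comparisons, so such counts have no background beside them. The members' differences ran from 0.06 to 1.03 on the log2 scale with a median of 0.48, a 1.4-fold difference in intensity, where the median over all probe sets was -0.01 and that over the bright genes 0.04. All 3 delta arrays lay above all 3 WT arrays in 30 members, against 15.6% of all probe sets, and the groups overlapped in Psmc4, Psmd4, Psmd5 and Psmd10. As these are bulk samples, fewer cells with a given level and less RNA per cell cannot be told apart.

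Both particles showed the difference. The core had 11 of 14 members called higher with a median difference of 0.56, and the regulatory particle 14 of 20 with a median of 0.47. The number called was 11 without delta EGFP-positive array 1, 12 without array 2 and 15 without array 3, where 4.64%, 5.19% and 5.71% of all probe sets were called higher. It was 11 without WT EGFP-positive array 1, 22 without array 2 and 11 without array 3, where 4.62%, 8.42% and 5.1% of all probe sets were called higher. In each of these fits 0 members were called lower. Called without each single array were 10 members: Psma7, Psmb2, Psmb5, Psmc1, Psmd1, Psmd6, Psmd7, Psmd12, Psmd13 and Psmd14.

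**Figure D1:**
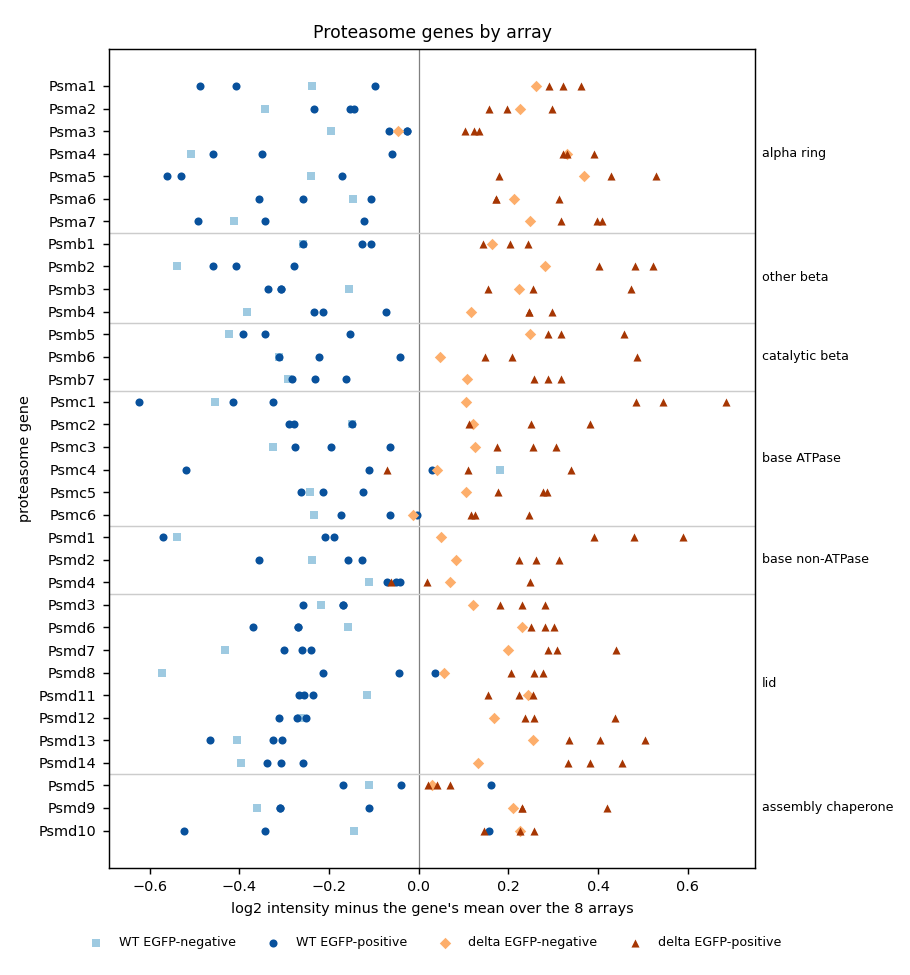
Log2 intensity of each of the 34 proteasome subunit genes (rows, grouped by role), drawn on the horizontal axis as the difference from the gene's mean over the 8 arrays, with 1 point per array and a symbol for each allele and EGFP sort. The 3 delta EGFP-positive arrays lie above the 3 WT EGFP-positive arrays in 30 of 34 genes, and the groups overlap in Psmc4, Psmd4, Psmd5 and Psmd10.

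Among the catalytic subunits, which carry the proteolytic sites, 2 of 3 were called higher. Psmb5, the chymotrypsin-like subunit and main target of the drug bortezomib, read 10.60, 10.79 and 10.55 in WT EGFP-positive, 11.26, 11.23 and 11.40 in delta EGFP-positive, 10.52 in WT EGFP-negative and 11.19 in delta EGFP-negative arrays. The 4 delta arrays were all above the 4 WT arrays. The Psmb5 difference between the EGFP-positive groups was 0.65 (SE 0.12, 95% interval 0.38 to 0.92, adjusted p = 0.0098), a 1.57-fold difference that was called under every alternative. Psmb5 has no further probe set, so the alternatives for probe set choice could not change its difference. Psmb7, the trypsin-like subunit, read 11.73, 11.61 and 11.66 in WT EGFP-positive, 12.18, 12.21 and 12.15 in delta EGFP-positive, 11.60 in WT EGFP-negative and 12 in delta EGFP-negative arrays. Its spread within each trio was small beside the difference of 0.51 (SE 0.10, adjusted p = 0.014), but the adjusted p became 0.053 without delta EGFP-positive array 1 or WT EGFP-positive array 3 and 0.056 without delta EGFP-positive array 2. Psmb6, the caspase-like subunit, read 10.34, 10.43 and 10.61 in WT EGFP-positive, 10.80, 10.86 and 11.14 in delta EGFP-positive, 10.34 in WT EGFP-negative and 10.70 in delta EGFP-negative arrays. The Psmb6 groups did not overlap, yet its difference of 0.47 (95% interval 0.15 to 0.78) did not pass the threshold (adjusted p = 0.064).

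The alpha ring, which forms the gated entrance of the core, had 6 of 7 members called higher with a median of 0.63. Psma5 had the largest difference of the ring and read 10.64, 11 and 10.61 in WT EGFP-positive, 11.70, 11.60 and 11.35 in delta EGFP-positive, 10.93 in WT EGFP-negative and 11.54 in delta EGFP-negative arrays. Each delta array of Psma5 was above each WT array. The difference was 0.80 (SE 0.15, adjusted p = 0.013), with an adjusted p of 0.057 without delta EGFP-positive array 1, 0.053 without array 2, 0.056 without WT EGFP-positive array 1 and 0.052 without array 3. A further bright probe set of Psma5 gave 0.99 (adjusted p = 0.0013). Psma3, the member of the ring that was not called, read 12.27, 12.23 and 12.27 in WT EGFP-positive, 12.40, 12.43 and 12.42 in delta EGFP-positive, 12.10 in WT EGFP-negative and 12.25 in delta EGFP-negative arrays. Psma3 differed by 0.15 (95% interval -0.07 to 0.38, adjusted p = 0.40), and its other, dimmer probe set gave -0.70 (adjusted p = 0.079). The remaining alpha subunits Psma1, Psma2, Psma4, Psma6 and Psma7 differed by 0.66, 0.39, 0.63, 0.46 and 0.70.

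The non-catalytic beta subunits, which complete the inner rings, had 3 of 4 members called higher with a median of 0.52. Psmb2 read 10.57, 10.62 and 10.75 in WT EGFP-positive, 11.55, 11.51 and 11.43 in delta EGFP-positive, 10.49 in WT EGFP-negative and 11.31 in delta EGFP-negative arrays. The lowest delta array of Psmb2 was well above the highest WT array, and the difference was 0.85 (SE 0.11, adjusted p = 0.0022), or 1.8-fold. Psmb1 had the smallest difference of this class and read 11.45, 11.58 and 11.60 in WT EGFP-positive, 11.85, 11.95 and 11.91 in delta EGFP-positive, 11.45 in WT EGFP-negative and 11.87 in delta EGFP-negative arrays. Its groups did not overlap, but the difference of 0.36 (95% interval 0.12 to 0.60) missed the threshold at an adjusted p of 0.064. Psmb3 and Psmb4 were called with differences of 0.61 and 0.44.

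In the regulatory particle, the base ATPases, the ring that unfolds substrates and opens the core's gate, had 4 of 6 members called higher with a median of 0.44. Psmc1 had the largest difference of all 34 members and read 9.30, 9.60 and 9.51 in WT EGFP-positive, 10.41, 10.61 and 10.47 in delta EGFP-positive, 9.47 in WT EGFP-negative and 10.03 in delta EGFP-negative arrays. The delta EGFP-negative array of Psmc1 lay between the 2 EGFP-positive groups. The difference was 1.03 (SE 0.12, 95% interval 0.74 to 1.32, adjusted p = 0.0018), or 2.04-fold, and the gene's other probe set, at the 5.48th percentile of brightness, gave 0.06 (adjusted p = 0.85). Psmc6 had the smallest difference of the ring and read 10.68, 10.51 and 10.62 in WT EGFP-positive, 10.93, 10.81 and 10.80 in delta EGFP-positive, 10.45 in WT EGFP-negative and 10.67 in delta EGFP-negative arrays. Its groups were separate but close, and the difference of 0.25 was not called (adjusted p = 0.21). Psmc4 also missed the threshold at 0.32 (95% interval -0.08 to 0.73, adjusted p = 0.31) with an SD of 0.28 among the WT EGFP-positive arrays, although its second probe set gave 0.49 and was called (adjusted p = 0.022). Psmc2, Psmc3 and Psmc5 were called with differences of 0.49, 0.42 and 0.45.

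Of the base subunits without ATPase activity, the scaffold proteins Psmd1 and Psmd2 were called higher and the ubiquitin receptor Psmd4 was not. Psmd1 read 9.72, 10.10 and 10.08 in WT EGFP-positive, 10.68, 10.77 and 10.88 in delta EGFP-positive, 9.75 in WT EGFP-negative and 10.34 in delta EGFP-negative arrays. Its difference was 0.81 (SE 0.14, adjusted p = 0.008), and every delta array exceeded every WT array. Psmd4 read 11.18, 11.21 and 11.20 in WT EGFP-positive, 11.27, 11.19 and 11.50 in delta EGFP-positive, 11.14 in WT EGFP-negative and 11.32 in delta EGFP-negative arrays. The Psmd4 groups overlapped, and the difference of 0.12 (95% interval -0.15 to 0.40) was not called (adjusted p = 0.61). Its other probe sets gave 0.12 and -0.27, neither called. Psmd2 differed by 0.48.

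The lid, which removes ubiquitin chains, had 7 of 8 members called higher with a median of 0.58. Psmd13, a structural lid subunit, had the largest difference and read 9.55, 9.71 and 9.69 in WT EGFP-positive, 10.42, 10.35 and 10.52 in delta EGFP-positive, 9.61 in WT EGFP-negative and 10.27 in delta EGFP-negative arrays. The WT and delta arrays of Psmd13 fell in separate ranges irrespective of EGFP, and the EGFP-positive groups differed by 0.78 (SE 0.11, adjusted p = 0.0034). Psmd14, the deubiquitinating enzyme of the lid, differed by 0.69 (SE 0.10, adjusted p = 0.0044). Psmd8 had the smallest difference of the lid and read 11.30, 11.05 and 11.22 in WT EGFP-positive, 11.54, 11.52 and 11.47 in delta EGFP-positive, 10.69 in WT EGFP-negative and 11.32 in delta EGFP-negative arrays. Psmd8 was low in the WT EGFP-negative array alone, and its difference of 0.33 (95% interval 0.07 to 0.58) was not called (adjusted p = 0.11). The lid subunits Psmd3, Psmd6, Psmd7, Psmd11 and Psmd12 were called with differences of 0.43, 0.58, 0.61, 0.46 and 0.59.

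The assembly chaperones, which bind base subunits before they join the mature particle, had 1 of 3 members called. Psmd9 read 7.99, 7.99 and 8.19 in WT EGFP-positive, 8.72, 8.53 and 8.53 in delta EGFP-positive, 7.94 in WT EGFP-negative and 8.51 in delta EGFP-negative arrays. Its delta arrays were all above its WT arrays and the difference was 0.54 (SE 0.12, adjusted p = 0.021). The call was lost without delta EGFP-positive array 1 (adjusted p = 0.080), delta EGFP-positive array 2 (0.056) or WT EGFP-positive array 1 (0.083), and a second, dimmer probe set gave 0.03 (adjusted p = 0.94). Psmd5 had the smallest difference of all members and read 9.20, 9.53 and 9.33 in WT EGFP-positive, 9.39, 9.41 and 9.44 in delta EGFP-positive, 9.26 in WT EGFP-negative and 9.40 in delta EGFP-negative arrays. The delta arrays of Psmd5 lay inside the WT range, with a difference of 0.06 (95% interval -0.22 to 0.33, adjusted p = 0.84). Psmd10 differed by 0.44 with a wide interval (0.03 to 0.85, adjusted p = 0.17), and its WT EGFP-positive arrays spread from 8.80 to 9.48.

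**Figure D2:**
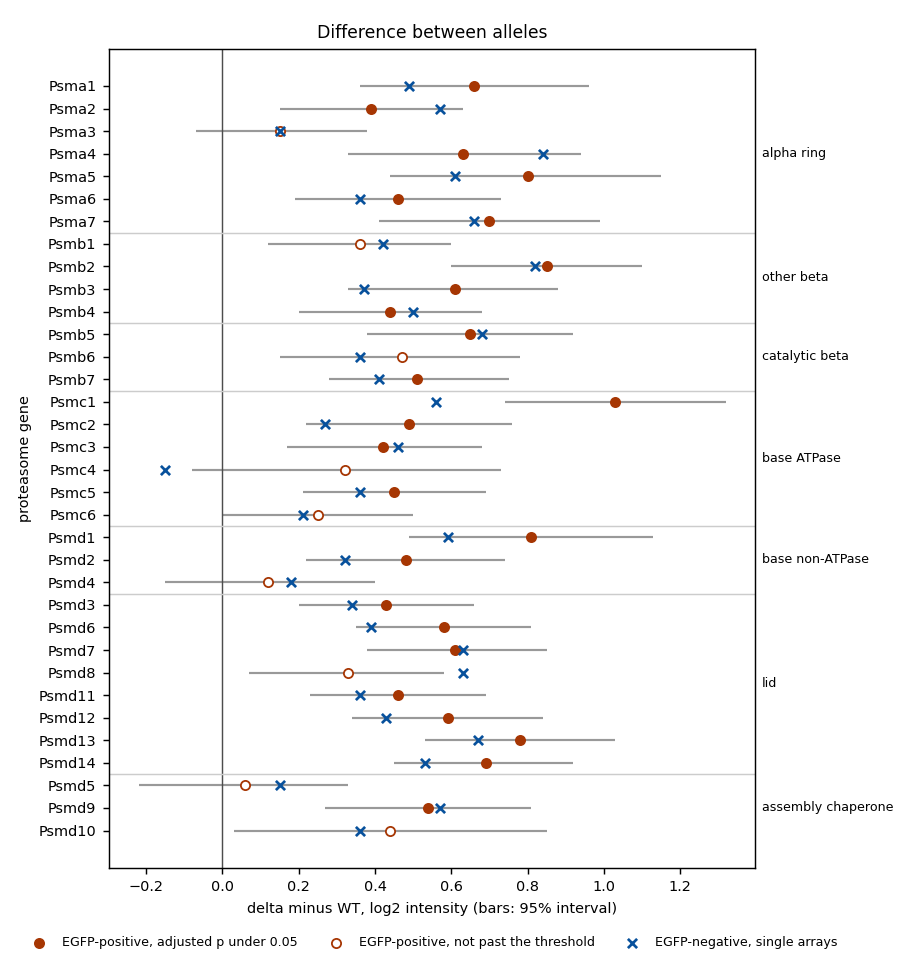
Difference in log2 intensity between the delta and WT alleles for each of the 34 genes (rows, by role), with circles and 95% intervals for the EGFP-positive arrays (3 against 3, filled where the adjusted p is under 0.05) and crosses for the single EGFP-negative arrays. The circles run from 0.06 (Psmd5) to 1.03 (Psmc1), and 33 of 34 crosses lie above 0, the exception being Psmc4 at -0.15.

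Many genes have further probe sets. The 34 members had 72 probe sets in all, and 19 genes had 38 further ones. Of the 26 further probe sets brighter than the median of all probe sets, 10 were called higher and 0 lower. Of all probe sets, 7.35% were called higher and 5.39% lower. In a fit limited to those above the median 14.6% were called higher. A difference above 0 was seen in 19 of the 26, against 48.6% of all probe sets. Of the 12 dimmer further probe sets, 0 were called in limma's adjusted test. The 3 representatives of Psma6, Psmc2 and Psmd11 are of a probe set type that may also bind related transcripts.

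Cells sorted as EGFP-negative, with 1 array per allele, were compared between alleles by values alone, with no replicate check and no p-value. In the delta EGFP-negative array 33 of 34 members were above the WT EGFP-negative array, where 48.3% of all probe sets were. At least 1.25-fold higher were 27 members, against 16.7% of all probe sets, and 0 members were at least 1.25-fold lower, against 17.6%. The median difference was 0.42, with 0.50 for the core and 0.38 for the regulatory particle. Psma4 (0.84), Psmb2 (0.82), Psmb5 (0.68) and Psmd13 (0.67) were among the largest, and the ATPase Psmc4 alone was lower, by -0.15. This comparison shares no array with that of the EGFP-positive groups. Both differences were above 0 for 33 members, against 30.6% of all probe sets, and over the 34 genes the sizes of the differences correlated at r = 0.70 (Spearman's rho 0.70). The genes share the arrays, so this describes how the members rank. The size of the difference was little related to brightness (r = -0.13 over the 34 genes).

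Between EGFP-positive and EGFP-negative cells of the same allele, no subunit gene passed the threshold. In the WT arrays 0 of 34 members were called (1 at an unadjusted p under 0.05) by limma, against 1.1% of all probe sets, with a median difference of 0.08 and a range from -0.38 (Psmc4) to 0.49 (Psmd8, 95% interval 0.13 to 0.86, adjusted p = 0.33). In the delta arrays 0 were called (1 at an unadjusted p under 0.05), against 0.0755% of all probe sets, with a median of 0.12 and a range from -0.03 (Psmd11) to 0.46 (Psmc1, 95% interval 0.06 to 0.87, adjusted p = 0.45). Of the 34 members, 23 were above 0 in the WT comparison, against 48.8% of all probe sets. In the delta comparison 30 were above 0, against 50.8% of all probe sets. All genes of a comparison share its only EGFP-negative array, so these counts are not of independent genes. With 1 EGFP-negative array per allele the intervals are wide: for Psmb5 the EGFP difference was 0.13 in WT (-0.25 to 0.51) and 0.10 in delta arrays (-0.28 to 0.49). The EGFP-positive trios of each allele also enter the comparison between alleles, so these comparisons are not independent of it.

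**Figure D3:**
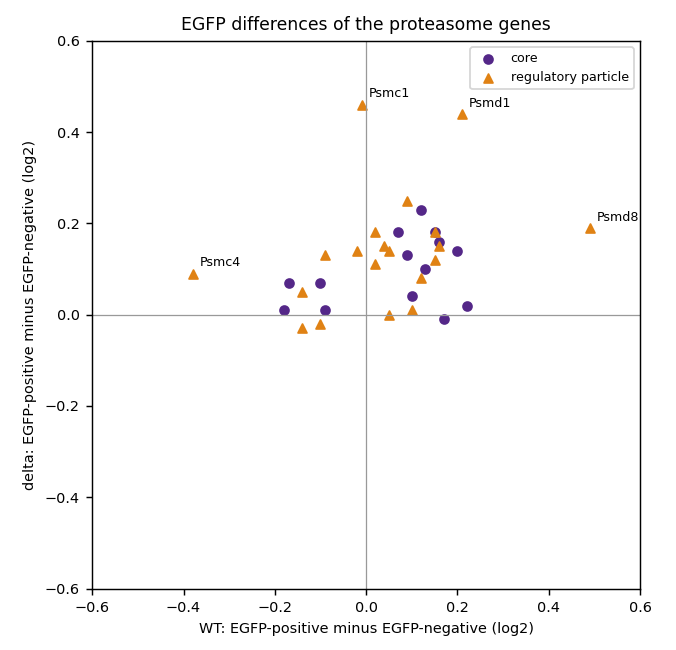
Difference in log2 intensity between EGFP-positive and EGFP-negative arrays of each of the 34 genes, with the WT allele on the horizontal and the delta allele on the vertical axis. The medians are 0.08 on the WT and 0.12 on the delta axis, with Psmd8 (0.49) and Psmc4 (-0.38) at the ends of the WT axis and Psmc1 (0.46) and Psmd1 (0.44) highest on the delta axis.

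The difference between the alleles' EGFP differences was tested as an interaction. By limma 0 of 34 members were called (0 at an unadjusted p under 0.05), against 0.04% of all probe sets. The members' interaction values had a median of 0.09 and ran from -0.30 (Psmd8) to 0.47 (Psmc1 and Psmc4), and the smallest adjusted p was 0.88. The 95% interval was -0.11 to 1.04 for Psmc1 and -0.56 to 0.52 for Psmb5, so interactions as large as many of the allele differences were within the error.

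The balance of core and regulatory particle was read from the mean log2 intensity of each. Core members averaged 11.27 ± 0.07 (SD, n = 3) in WT EGFP-positive, 11.82 ± 0.02 (SD, n = 3) in delta EGFP-positive, 11.21 in WT EGFP-negative and 11.72 in delta EGFP-negative arrays. Regulatory particle members averaged 10.21 ± 0.04 (SD, n = 3), 10.70 ± 0.01 (SD, n = 3), 10.17 and 10.56 in the same order. Both means thus separated the arrays by allele, with a difference of 0.55 for the core and 0.49 for the regulatory particle in EGFP-positive cells. Core minus regulatory particle was 1.03, 1.09 and 1.07 in the WT and 1.12, 1.12 and 1.1 in the delta EGFP-positive arrays, 1.04 in the WT and 1.16 in the delta EGFP-negative array. The change in this balance between alleles was 0.06 in EGFP-positive and 0.12 in EGFP-negative cells. Taken as a median over genes in place of the mean, it was 0.12 in EGFP-positive and 0.44 in EGFP-negative cells, and without the 3 chaperones it was 0.03 in EGFP-positive cells. The value therefore depended on how the genes were averaged, and it was given no test. Its level in an array compares different probe sets and is not interpreted.

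**Figure D4:**
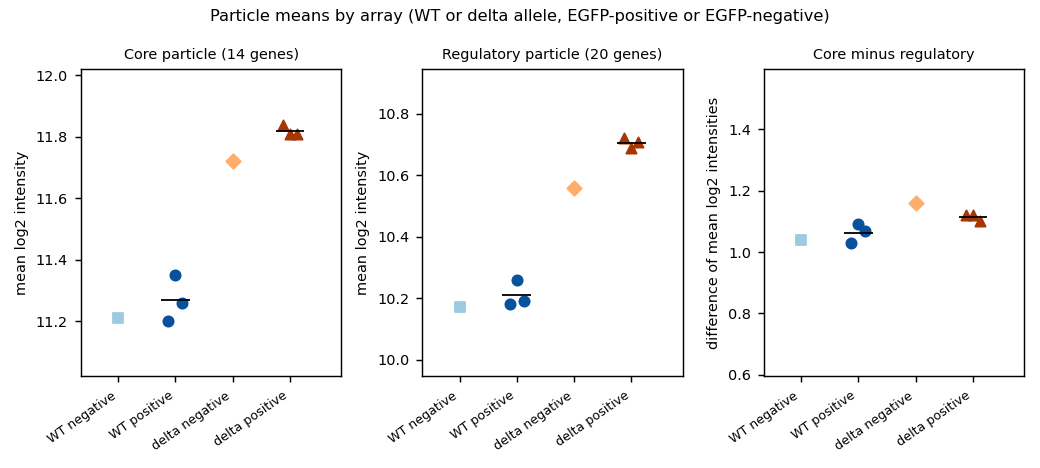
Mean log2 intensity of the 14 core genes (left) and the 20 regulatory particle genes (middle) and their difference (right) in each of the 8 arrays, with bars at the mean of each EGFP-positive trio. The delta arrays lie above the WT arrays in the left and middle panels, and the right panel, drawn over a range as wide, spans 1.03 to 1.16.

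The titles open with numbers that fall in 3 series, each with a WT and a delta EGFP-positive array, and the labels do not say what they number. Within the series the delta array was above the WT array for 34, 31 and 34 of the 34 members, against 50.7%, 49.1% and 49.7% of all probe sets, with median differences of 0.57, 0.45 and 0.54. WT EGFP-positive array 2, in the second series, was the highest of its trio for 19 members, and Psmd5 was the lowest there at -0.12. With the series as a block in the fit, 15 members were called higher and 0 lower, against 6.01% of all probe sets called higher.

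Other measures moved with the alleles. Of 17 measured cell cycle genes 16 were called higher in the delta EGFP-positive arrays, with a median difference of 2.62, and their mean log2 intensity was 8.44, 7.84 and 8.80 in WT EGFP-positive, 10.81, 10.68 and 10.94 in delta EGFP-positive, 7.65 in WT EGFP-negative and 10.03 in delta EGFP-negative arrays. Of 19 dissociation stress genes 1 was called higher and 5 lower (median -0.96), with means of 10.78, 9.70 and 10.83 in the WT and 9.87, 9.80 and 8.68 in the delta EGFP-positive arrays. With WT EGFP-positive array 2 and delta EGFP-positive array 3 both left out, 18 members were called higher, against 8.06% of all probe sets. The stress means of the arrays kept there, 10.78 and 10.83 in WT and 9.87 and 9.80 in delta, also differed between alleles. The 2 CD8 T cell genes had list means of 5.94 to 6.71 in WT EGFP-positive and 6.26 to 8.12 in delta EGFP-positive arrays (0 of 2 called). Their means were 6.98 in the WT and 8.05 in the delta EGFP-negative array. Cd8a differed by 1.81 (adjusted p = 0.16), with 8.50, 8.84 and 5.95 in delta EGFP-positive arrays, and Cd8b1 by 0.05 (adjusted p = 0.94). Of the 2 measured NK cell genes Klrk1 was called higher by 1.77 (adjusted p = 0.00026). Of the 4 B cell, 5 myeloid and 2 erythroid genes 0 were called. The myeloid marker Csf1r differed by -1.81 (adjusted p = 0.15). The part of these differences in the proteasome result was not tested.

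Other genes of the pathway were examined from lists of 39 genes, 30 of them measured, each by its brightest probe set. In the delta EGFP-positive arrays 8 were called higher, against 7.35% of all probe sets and 17.8% of bright genes. By these probe sets 0 were called lower, and the median difference was 0.30. The count was 3 without delta EGFP-positive array 1, WT EGFP-positive array 1 or WT EGFP-positive array 3, 4 without delta EGFP-positive array 2, 5 without delta EGFP-positive array 3 and 11 without WT EGFP-positive array 2, with 0 lower each time. Of the immunoproteasome catalytic subunits, which take the place of the constitutive ones, Psmb9 was called and Psmb8 and Psmb10 were not. Psmb9 read 11.23, 11.79 and 11.44 in WT EGFP-positive, 12.15, 12.13 and 12.49 in delta EGFP-positive, 11.53 in WT EGFP-negative and 12.29 in delta EGFP-negative arrays, a difference of 0.77 (SE 0.17, adjusted p = 0.025). The Psmb9 groups did not overlap, but the call was lost without each EGFP-positive array other than WT array 2, with an adjusted p of up to 0.085. Psmb8 differed by 0.37 (95% interval 0.00 to 0.73, adjusted p = 0.20) with overlapping groups, and Psmb10 by 0.45 (95% interval 0.14 to 0.76, adjusted p = 0.068). Without WT EGFP-positive array 2, the highest of its trio for Psmb8, Psmb9 and Psmb10, all 3 were called higher. In the EGFP-negative arrays Psmb8 differed by 0.45, Psmb9 by 0.76 and Psmb10 by 0.62. The thymus subunit Psmb11 and the testis subunit Psma8 were dim, at the 25.8th and 21.9th percentile, with differences of -0.13 and 0.19, neither called.

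Of the activators that can cap the core in place of the regulatory particle, Psme3 was called higher, with a difference of 0.70 (SE 0.19, adjusted p = 0.047). The Psme3 call was lost without each EGFP-positive array other than delta array 2 (adjusted p up to 0.14), and a second bright probe set gave 0.68. Psme1 and Psme4 differed by 0.20 and 0.24 (adjusted p = 0.34 and 0.33). The inhibitor Psmf1 differed by 0.27 (adjusted p = 0.17). Of the 5 core assembly chaperones, Psmg1 (0.92, adjusted p = 0.011) and Pomp (0.68, adjusted p = 0.0062) were called higher, and both calls held without each single array. Among 6 ubiquitin enzymes and partners bound to the proteasome 3 were called higher, the largest being Uchl5, a deubiquitinating enzyme, at 0.94 (SE 0.10, adjusted p = 0.001). Uchl5 read 9.79, 9.83 and 9.79 in WT EGFP-positive and 10.79, 10.71 and 10.71 in delta EGFP-positive arrays, and its call held without each single array. The deubiquitinase Usp14 differed by 0.57 (adjusted p = 0.045, up to 0.15 and no longer called without each EGFP-positive array other than WT array 2), and its 3 further bright probe sets ran from -0.39 to 0.24. Of 5 genes of the Vcp segregase, which extracts ubiquitinated proteins, Nploc4 was called (0.55, adjusted p = 0.027, up to 0.092 and no longer called without WT array 1 or 3 or delta array 1 or 2). By its brightest probe set Vcp differed by 0.04 (adjusted p = 0.88), but a further bright probe set gave -0.92 and was called lower. Of 4 shuttle factors, which deliver ubiquitinated proteins, 0 were called, with a median of -0.28.

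Of 8 transcription factors of proteasome genes and their partners 1 was called higher and 1 lower. Of all probe sets 7.35% were called higher and 5.39% lower, so with 8 genes these counts are not read as a result about the list. Without WT EGFP-positive array 2 the count was 0 higher and 3 lower, as Mafg lost its call and Maff and Mafk, with differences of -1.49 and -0.56 in the reported fit, gained one. Nfe2l1, the factor that drives proteasome genes when proteolysis is limiting, read 8.03, 8.52 and 8.08 in WT EGFP-positive, 8.06, 8.12 and 8.15 in delta EGFP-positive, 8.26 in WT EGFP-negative and 8.17 in delta EGFP-negative arrays. Its groups overlapped, and the difference was -0.10 (95% interval -0.44 to 0.24, adjusted p = 0.77). Mafg, a small Maf protein that pairs with such factors, was higher by 0.68 (adjusted p = 0.034, up to 0.12 and no longer called without each EGFP-positive array other than WT array 3). Bach1, a repressor at antioxidant response elements, was lower by -1.54 (SE 0.22, adjusted p = 0.0035), with 10.03, 9.26 and 10.00 in WT EGFP-positive and 8.39, 8.14 and 8.13 in delta EGFP-positive arrays, and kept its call without each single array. Transcript levels of these factors say nothing of their protein or its activity.

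**Figure D5:**
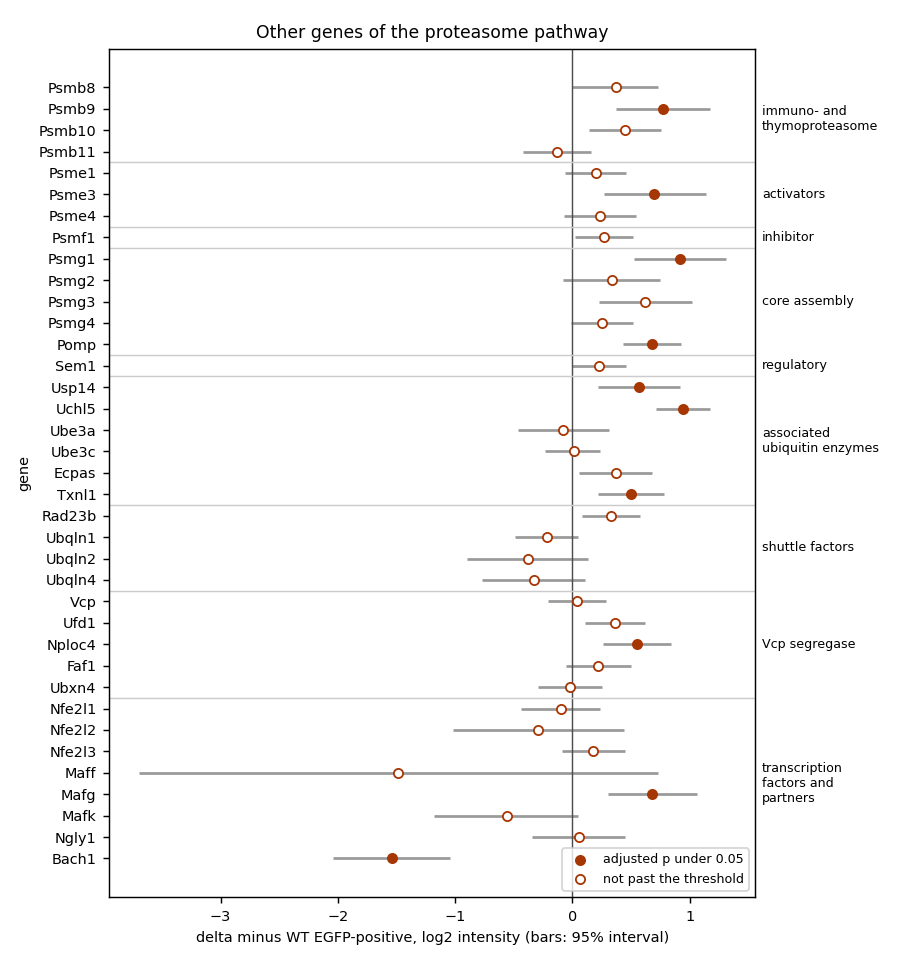
Difference in log2 intensity between delta and WT EGFP-positive arrays for the other genes of the ubiquitin and proteasome pathway, grouped by list, with filled points for an adjusted p under 0.05. Uchl5 (0.94) and Psmg1 (0.92) lie highest, Nfe2l1 lies near 0, and Bach1 is lowest at -1.54.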

How the data were processed

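The authors deposited linear probe set intensity for 8 Affymetrix arrays. Per the submitters' processing notes RMA was used, a method that corrects background, normalizes by quantiles and summarises probes, and that can compress differences of dim probe sets. Its software version was not given in the sources used here. From the deposited intensities log2 was taken with no pseudocount and no filter. Of 45101 probe sets, 64 controls were left out and 45037 tested. Per the platform annotation, 34945 probe sets have 1 symbol, 932 several and 9160 none here, and 34741 matched a current record. Group means over all 8 arrays were estimated in limma 3.58.1 (R 4.3.3, with 4 residual and 3.72 prior degrees of freedom). Tests were two-sided at an adjusted p under 0.05, and 95% intervals use the moderated degrees of freedom. The spread of the EGFP-negative groups, with 1 array each, was taken from the replicated groups. With 3 against 3 arrays the smallest p of an exact permutation test is 0.1.

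Members and lists were chosen with earlier results of these data known, so no list was tested. Values in every array were given for the catalytic subunits and for the members with the highest and lowest difference of each role class, and listed genes by counts, with values for immunoproteasome and activator subunits, Nfe2l1 and otherwise the 2 largest past the threshold. Psmc4, Psmd2, Psmd10, Psmd14, Psmb11, Psma8, Psmf1 and Foxp3 were named beyond this rule, after their values were seen. So were the listed genes Vcp, Cd8a, Cd8b1, Csf1r, Maff, Mafk, Irf1, Tap2 and B2m. Of 119 listed genes 103 were measured, the rest not analysed here. The fit was tested on simulated data. Alternatives were arrays left out, a title-series block, scaling, pseudocount, dim filter, variance model and probe set choice. The title numbers were not taken to pair arrays: deviations from the group means correlated at 0.12, 0.05 and -0.10 in the 3 series. Promoters were read from RefSeq (GRCm38.p6). Protein sequences were not used here.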

Additional observations from a re-analysis of the deposited data

Results flagged for a closer look

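Psmd6, a lid subunit, moved in opposite directions with EGFP in the 2 alleles. Every WT EGFP-positive array (10.69, 10.79 and 10.79) was below the WT EGFP-negative array (10.90), and every delta EGFP-positive array (11.34, 11.36 and 11.31) was above the delta EGFP-negative array (11.29). The difference between these EGFP differences was 0.19 (95% interval -0.28 to 0.65), and limma's interaction test did not call it (adjusted p = 0.96). Such opposite moves occurred in 10.9% of all probe sets. Groups of 3 arrays were not examined for single outlying arrays.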

How the results depend on the processing

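Under every alternative run, 0 members were called lower in delta against WT EGFP-positive arrays, and the median difference of the members kept its direction. The number called higher, 25 in the reported fit, ranged from 11 to 22 when single arrays were left out and was 15 with the title series as a block. The other alternatives, named in the processing, gave between 18 and 27, where 7.14% to 14.6% of all probe sets or genes tested were called higher. The count of 27 came with the dim filter (14.6% of its probe sets) and with the other variance model (7.52%). Called under every alternative were 7 members (Psma7, Psmb2, Psmb5, Psmd1, Psmd12, Psmd13 and Psmd14). Of these, Psmb2, Psmb5, Psmd1, Psmd12 and Psmd14 have no further probe set, so the choice of probe set could not change their differences. Psmc1, Psmd6 and Psmd7 have further probe sets and lost their call only under the choice of probe set. Membership of this list thus depends partly on how many probe sets a gene has. Of 544 member values under alternatives, 424 kept direction and call, 101 lost the call, 13 gained it and 6 changed sign. The changes of sign were Psmd5 without WT EGFP-positive array 1 (-0.02, against up to 0.15 without other single arrays), Psma1, Psma3 and Psmd7 at their second brightest probe set (-0.06, -0.70 and -0.14), and Psma3 and Psmd4 as the mean of their probe sets (-0.27 and -0.01), and none of these 6 was called. In the EGFP comparisons and the interaction 0 members were called under any alternative run. Core minus regulatory particle moved by more than its SD of 0.02: for delta against WT EGFP-positive from 0.06 to 0.03 without the chaperones and 0.12 as a median over genes. With the median over genes it was 0.13 for the WT EGFP comparison, -0.18 for the delta EGFP comparison, -0.31 for the interaction and 0.44 for the EGFP-negative arrays. With the second brightest probe sets it was -0.03, -0.08 and 0.09 for the WT EGFP comparison, the delta EGFP comparison and the EGFP-negative arrays. After quantile normalization once more it was -0.07 for the delta EGFP comparison and -0.09 for the interaction. The cause of these shifts was not tested. No fit without a single EGFP-negative array could be made, and the number of arrays limits the precision.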

Other observations

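The lists also held genes that carry proteasome products on to antigen presentation. Of 7 measured antigen processing genes 1 was called higher in delta against WT EGFP-positive arrays and 0 lower, with a median difference of -0.02. Of all probe sets 7.35% were called higher and 5.39% lower, and of bright genes 17.8% were called higher, so this count is near the background. In the single EGFP-negative arrays 6 of the 7 were higher in delta, from 0.25 (Irf1) to 0.67 (Tap2), and B2m differed by -0.09. There 48.3% of all probe sets were higher in delta. The called gene was Erap1, the peptidase that trims peptides in the endoplasmic reticulum, at 0.59 (SE 0.12, adjusted p = 0.019). Erap1 read 8.86, 9.01 and 9.11 in WT EGFP-positive, 9.63, 9.43 and 9.69 in delta EGFP-positive, 9.20 in WT EGFP-negative and 9.75 in delta EGFP-negative arrays. The call was lost without delta EGFP-positive array 1 or 3 or WT EGFP-positive array 1, with an adjusted p of up to 0.073.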
